A study of Bos taurus with 2 samples.

Results

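The mir-17-92 cluster was described here in the mammary gland (MG) of dairy cows. Its members were taken by name from the table of known bovine miRNAs, with both arms of each hairpin, and came to 7 miRNAs from 6 hairpins (mir-17, mir-18a, mir-19a, mir-20a, mir-19b and mir-92) among 283 known miRNAs and 884 unique miRNAs in all. The lactation library came from the MG of 1 multiparous Holstein cow that was 6 years old and had been in milk for 2 months. The non-lactation library came from the MG of 1 multiparous Holstein cow that was 4 years old, was not in milk and was not pregnant. Age, animal and stage cannot be told apart, because there was 1 library per condition. No difference below therefore has a replicate check, and each test compares these libraries, not the conditions.

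The mir-17-92 cluster is a polycistronic gene, in which several hairpins are cut out of one primary transcript. In human and mouse its transcription is driven by MYC, and its miRNAs favour proliferation and survival, with the pro-apoptotic protein BIM and E2F1 among their known targets. The members fall into families by their seed, bases 2 to 8 of the mature miRNA, which pairs with target mRNAs. In the MG the secretory epithelium expands before birth of the calf, makes milk during lactation and regresses after milking ends.

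The deposited tables placed the 6 hairpins on the + strand of chromosome 12 (BTA 4.0) within 779 nt, in the order mir-17, mir-18a, mir-19a, mir-20a, mir-19b and mir-92. The gaps between neighbours were 59, 68, 87, 57 and 35 nt. In the RefSeq annotation (an assembly of another build, used for names and order only), the same 6 miRNA genes stand in the same order and the next gene is GPC5, which codes for a glypican. The mature sequences are shown because the seed, in capitals, sets the grouping of all later results.
mir-17-5p: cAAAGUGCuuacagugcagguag
mir-20a-5p: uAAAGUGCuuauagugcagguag
mir-18a-5p: uAAGGUGCaucuagugcagau
mir-19a-3p: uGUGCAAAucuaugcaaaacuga
mir-19b-3p: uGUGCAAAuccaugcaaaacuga
mir-92-3p: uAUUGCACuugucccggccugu
mir-17-3p: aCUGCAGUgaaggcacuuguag
With positions counted from 1 at the 5′ end, mir-20a-5p differs from mir-17-5p by C1U and C12U, and both share the seed AAAGUGC. Between mir-17-5p and mir-18a-5p the seed differs by A4G. The mir-19a-3p and mir-19b-3p sequences share the seed GUGCAAA and differ by U11C alone.

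Each hairpin can give a miRNA from its 5′ arm and one from its 3′ arm. The hairpins of mir-17, mir-19b and mir-92 are shown with both sequenced arms in capitals, since the leading arm is the 5′ arm in the first and the 3′ arm in the others. They lie at chr12:64665102-64665185, chr12:64665681-64665767 and chr12:64665803-64665880 on the + strand.
mir-17: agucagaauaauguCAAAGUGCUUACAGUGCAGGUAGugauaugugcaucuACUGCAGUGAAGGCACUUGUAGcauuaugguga
mir-19b: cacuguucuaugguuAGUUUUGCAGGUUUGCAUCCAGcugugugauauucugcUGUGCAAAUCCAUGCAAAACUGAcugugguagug
mir-92: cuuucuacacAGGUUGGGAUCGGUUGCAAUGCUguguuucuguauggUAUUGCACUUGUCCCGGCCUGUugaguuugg

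The values are the authors' read counts of the most abundant sequence of each miRNA, and they were scaled to RPM, the reads per 1000000 clean reads of the library. All listed miRNAs together held 5745936 reads in the lactation library, against 7879028 in the non-lactation library. Intervals are exact 95% intervals, and they take in counting error alone, as copies made by PCR are no independent molecules. Each ratio is the RPM of the lactation library over that of the non-lactation library. Because the 273 miRNAs with at least 100 summed reads had a median log2 ratio of 0.24 under this scaling, the distance of a member from that median is given as well.

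The cluster as a whole was near the same level in both libraries with clean reads as totals, while its members moved apart. The 7 members summed to 4423 RPM in the lactation library, against 4267 RPM in the non-lactation library, a ratio of 1.04 (1.02 to 1.05) that under the other scalings ran from 0.777 without scaling to 1.12 with the listed isomiR reads as totals. Most of these reads were of 1 member, mir-92-3p, which made up 85.3% of the cluster's reads in the lactation library, against 92.9% in the non-lactation library. Without mir-92-3p the other 6 summed to 651 RPM in the lactation library, against 302 RPM in the non-lactation library, a ratio of 2.16 (2.08 to 2.23), and of 1.61 even without scaling.

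By Fisher's exact test (two-sided, Bonferroni over 883 miRNAs) 4 of the 7 members were higher in the lactation library, 1 was lower and 2 did not pass. Under TMM, DESeq2 factors or no scaling 2 were higher and 1 lower, and with Benjamini-Hochberg adjustment 5 were higher and 1 lower. The background was 17.4% of all miRNAs tested for higher and 10.9% for lower, which are 154 and 96 miRNAs. It was not matched for depth, since 273 of the 883 miRNAs reached 100 summed reads, against 5 of the 7 members. Of the same 883 miRNAs, 126 were higher and 114 lower under TMM, 124 and 116 under DESeq2 factors, and 108 and 125 with no scaling. For Benjamini-Hochberg adjustment no background was counted. Among the 5 members that reached 100 summed reads, the lactation library had 2 that differed upward by 2-fold or more and 0 downward, beside 28.9% and 22.7% of the 273 miRNAs of that depth. The median log2 ratio was 1.03 over the 7 members and 0.72 over those 5.

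The mir-17-5p and mir-20a-5p miRNAs, which in human and mouse restrain the cell cycle inhibitor p21 and E2F factors, were the members of that depth that were at least 2-fold higher. Reads of mir-17-5p numbered 3312 in the lactation library, against 1432 in the non-lactation library, which are 277 RPM (267 to 286) and 89.7 RPM (85.1 to 94.4). The difference was 3.09-fold (2.90 to 3.29), with a Fisher's exact test adjusted p = 6.83e-305, and the log2 ratio of 1.63 lay 1.39 above the median miRNA. Among known miRNAs it was at rank 55 in the lactation library, against rank 79 in the non-lactation library.

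Reads of mir-20a-5p numbered 1891 in the lactation library, against 878 in the non-lactation library, or 158 RPM and 55.0 RPM. It was 2.87-fold higher (2.65 to 3.12; Fisher's exact test, adjusted p = 1.30e-157), and its log2 ratio of 1.52 lay 1.29 above the median. These paired 5p miRNAs had ratios that could not be separated from each other, since the ratio of mir-17-5p over that of mir-20a-5p was 1.07 (0.969 to 1.19). When the reads of all isomiRs were used, it was 1.14 (1.07 to 1.22). Both remained above 0 on the log2 scale under every scaling tried and with all isomiRs, from 1.21 to 1.73 for mir-17-5p and from 1.10 to 1.63 for mir-20a-5p.

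The mir-17-3p miRNA, from the other arm of the mir-17 hairpin, was read 326 times in the lactation library, against 265 times in the non-lactation library. At 27.2 RPM and 16.6 RPM it was 1.64-fold higher (1.39 to 1.94; Fisher's exact test, adjusted p = 1.62e-06), 0.48 above the median on the log2 scale. Under TMM, DESeq2 or no scaling, and with the reads of all isomiRs, it did not pass the test.

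The mir-19 family is known in mouse for its part in the growth of B-cell lymphoma. Its abundant member, mir-19b-3p, had 2225 reads in the lactation library, against 2226 in the non-lactation library, or 186 RPM and 139 RPM. It was 1.33-fold higher (1.26 to 1.42; Fisher's exact test, adjusted p = 7.85e-19) with clean reads as totals, but not under TMM (1.11-fold) or DESeq2 factors (1.10-fold), and without scaling the direction flipped at a ratio of 1.00. Its log2 ratio lay 0.18 above the median. The tables list mir-19b at a second place, on chromosome 23 (46125380 to 46125436), with no separate reads. The sequence listed there has 19 nt and matches the first 19 bases of the 23 nt sequence counted here. RefSeq annotates a further copy on chromosome X, whose sequence was not compared, so any reads of the copies could not be told apart.

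The rarer members did not pass the Bonferroni-adjusted test. The mir-19a-3p miRNA, which differs from mir-19b-3p at 1 base, had 13 reads in the lactation library, against 8 in the non-lactation library, a ratio of 2.17 (0.833 to 6.04). For mir-18a-5p the reads were 26 in the lactation library, against 17 in the non-lactation library, a ratio of 2.04 (1.07 to 4.01; Fisher's exact test, unadjusted p = 0.0211, adjusted p = 1.0), which passed with Benjamini-Hochberg adjustment alone (adjusted p = 0.0466). With all isomiRs the intervals of both lay above 1, at 1.39 to 3.09 for mir-18a-5p and 1.31 to 6.34 for mir-19a-3p, and neither passed the adjusted test. In mouse cells mir-18a is known to repress CTGF, a matricellular factor. The levels of the members ran from 1.09 RPM to 3771 RPM in the lactation library, and from 0.501 RPM to 3965 RPM in the non-lactation library. How well each sequence enters a library was not measured.

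The mir-92-3p miRNA, known in mouse for restraining the growth of blood vessels, was the most abundant member. It had 45125 reads in the lactation library, against 63315 in the non-lactation library, 3771 RPM (3737 to 3806) and 3965 RPM (3934 to 3996). It was thus 1.05-fold lower (1.04 to 1.06; Fisher's exact test, adjusted p = 3.20e-13), with a log2 ratio of -0.07, while scaling by all listed isomiR reads turned it to 1.02-fold higher and not past the test. Against the median miRNA its log2 ratio stood at -0.31. It was at rank 17 of the known miRNAs in the lactation library, against rank 18 in the non-lactation library. RefSeq annotates a further copy of this miRNA, MIR92A-2, on chromosome X. Its sequence was not compared here, so any reads of it could not be told from those of the chromosome 12 hairpin.

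**Figure D1:**
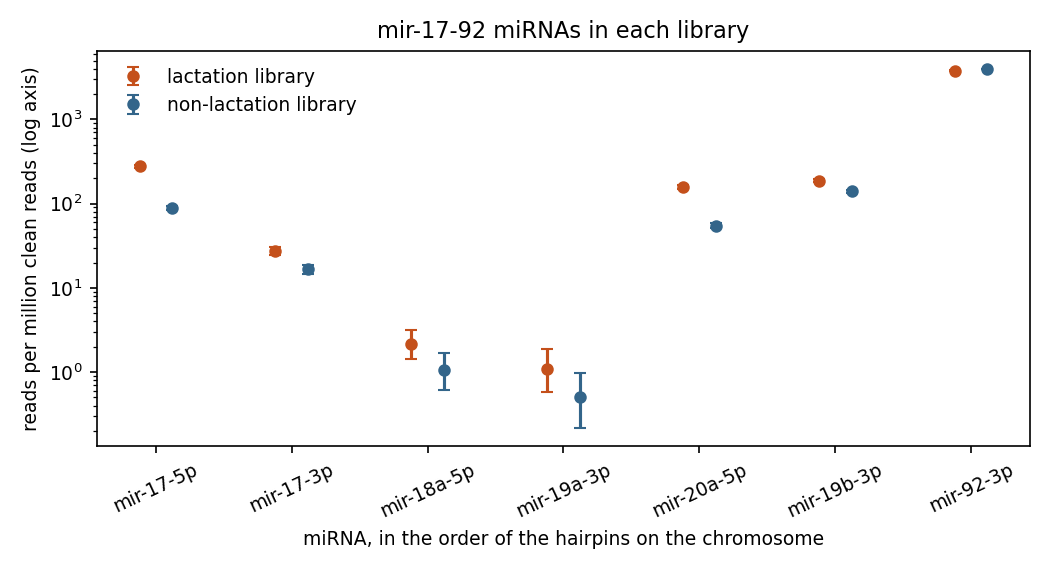
RPM (log axis) of each member in the lactation library and the non-lactation library, with exact 95% Poisson intervals, in the order of the hairpins. The mir-17-5p and mir-20a-5p points are well apart, at 277 and 89.7 RPM and at 158 and 55.0 RPM, whereas those of mir-92-3p, at 3771 and 3965 RPM, nearly coincide.

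The members were next compared with each other. The ratio of one member's ratio over another's does not depend on the library totals, because both are counted in the same libraries. In 10 of the 21 pairs of members the 95% interval excluded 1, and in 8 at the Bonferroni level over the pairs. Of the 10 pairs among members with at least 100 summed reads, 9 excluded 1, the exception being mir-17-5p with mir-20a-5p. Of the 11 pairs with mir-18a-5p or mir-19a-3p, 1 did, that of mir-18a-5p over mir-92-3p at 2.15 (1.12 to 4.22). With all isomiRs 14 of the 21 pairs excluded 1, of which 4 were pairs with mir-18a-5p or mir-19a-3p. Pairs of other miRNAs of like depth were not counted, so these counts have no background and do not set the cluster apart.

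Relative to mir-92-3p the ratio was 3.25 times as high for mir-17-5p (3.05 to 3.46), 3.02 times for mir-20a-5p (2.79 to 3.28), 1.73 times for mir-17-3p (1.46 to 2.04) and 1.40 times for mir-19b-3p (1.32 to 1.49). The order from highest to lowest was thus mir-17-5p and mir-20a-5p, then mir-17-3p, mir-19b-3p and mir-92-3p. Both mir-17-5p and mir-17-3p are cut from the same hairpin, and their ratios differed by 1.88 times (1.57 to 2.24). The step from mir-17-3p to mir-19b-3p, 1.23 (1.03 to 1.47), turned round with the reads of all isomiRs, at 0.682 (0.607 to 0.767).

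The highest and the lowest member with at least 100 summed reads, mir-17-5p and mir-92-3p, lay 1.70 apart on the log2 scale. Known miRNAs on one strand with gaps of at most 10 kb formed 14 clusters with at least 3 miRNAs of that depth. By this range mir-17-92 stood at place 6 of the 14, whose median was 1.54. The nearest above was mir-23a, mir-27a and mir-24 with 1.71, and the nearest below was the cluster from mir-532-5p to mir-362-3p with 1.60. A spread of this size was thus near the middle of the known clusters. These held from 3 to 14 miRNAs of that depth, against 5 in mir-17-92, and the ranges were not adjusted for that number.

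**Figure D2:**
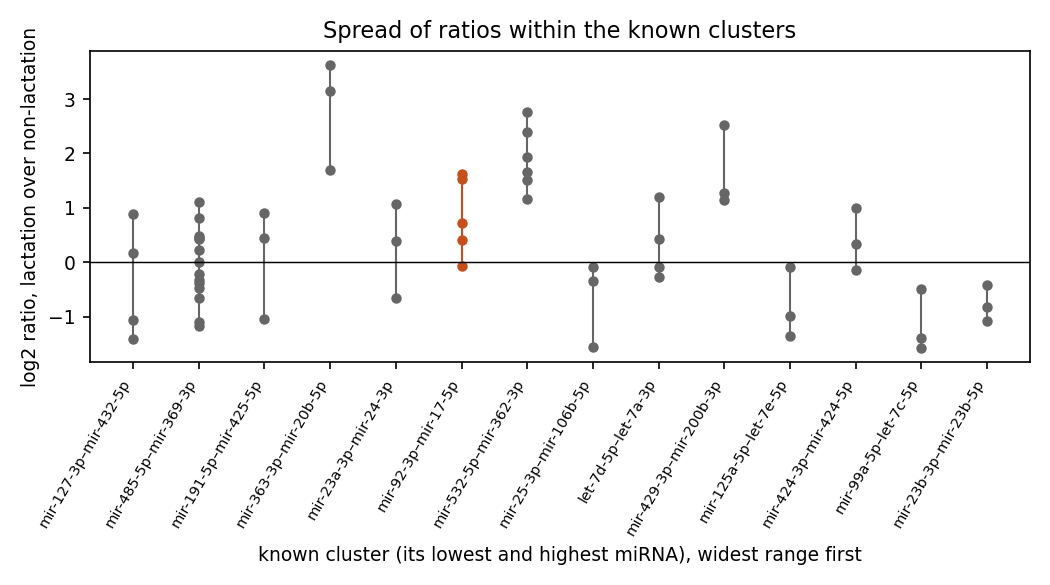
Log2 ratio, lactation over non-lactation, of each miRNA with at least 100 summed reads in the 14 known clusters, widest range first, with mir-17-92 in orange. Its points run from -0.07 (mir-92-3p) to 1.63 (mir-17-5p), a range of 1.70 at place 6.

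Both arms of every hairpin were read in at least 1 library, the second arms of 5 hairpins being listed as CN candidates rather than known miRNAs. The mir-17 hairpin had the most balanced arms among those with at least 100 reads. Its 3p arm held 8.96% (8.05% to 9.94%) of 3638 reads in the lactation library, against 15.6% (13.9% to 17.4%) of 1697 reads in the non-lactation library. The intervals did not overlap. With all isomiRs the shares were 8.30% and 15.8%.

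On the other deeply read hairpins the second arm was scarce in both libraries. For mir-20a the 3p arm had 13 reads in the lactation library, against 10 in the non-lactation library, shares of 0.683% (0.364% to 1.16%) and 1.13% (0.541% to 2.06%). For mir-19b the 5p arm had 4 and 6 reads in the lactation and the non-lactation library, or 0.179% (0.0489% to 0.459%) and 0.269% (0.0987% to 0.584%). The 5p arm of mir-92 had 52 reads in the lactation library, against 60 in the non-lactation library, or 0.115% (0.0860% to 0.151%) and 0.0947% (0.0723% to 0.122%). In all 3 hairpins the intervals of both libraries overlapped. The ratio of the leading arm over that of the second arm was 1.66 for mir-20a (0.647 to 4.11), 1.5 for mir-19b (0.355 to 7.23) and 0.822 for mir-92 (0.558 to 1.22), so a shift of arm use was not detectable at this depth. For mir-19b and mir-92 the leading arm may also hold reads of further copies, whereas the second arm was matched to the chromosome 12 hairpin.

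The scarce hairpins were read too thinly for a comparison. The 3p arm of mir-18a had 9 reads in the lactation library and was listed at 0 in the non-lactation library, beside 26 and 17 reads of the 5p arm. The 5p arm of mir-19a was listed at 0 in the lactation library and had 3 reads in the non-lactation library. The lowest value above 0 in the tables is 3 reads, so a listed 0 may stand for fewer than 3 reads.

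The reads of a miRNA spread over isomiRs, which are variants of its ends and sequence. The share held by the most abundant sequence differed between the libraries in 5 of the 7 members (Fisher's exact test, two-sided, Bonferroni over the 411 miRNAs with at least 10 isomiR reads in each library). It was higher in the lactation library in 4 and lower in 1, beside 10.9% and 13.1% of those 411. This background was not matched for depth. The members that did not differ, mir-18a-5p and mir-19a-3p, had 68 and 23 isomiR reads in the lactation library, against 44 and 11 in the non-lactation library. For mir-17-5p the share was 48.6% of 6819 isomiR reads in the lactation library, against 38.6% of 3708 in the non-lactation library (Fisher's exact test, adjusted p = 4.12e-20). For mir-20a-5p it was 57.9% of 3264 and 43.3% of 2027 (Fisher's exact test, adjusted p = 1.68e-22), again in the lactation and the non-lactation library.

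The other abundant members did not all move the same way. The share for mir-17-3p was 52.8% in the lactation library, against 38.1% in the non-lactation library, a difference of 14.7 percentage points (Fisher's exact test, adjusted p = 3.83e-05). For mir-92-3p, the member whose reads were spread least, it was 78.5% of 57514 in the lactation library, against 73.8% of 85761 in the non-lactation library (Fisher's exact test, adjusted p = 1.76e-87). The exception was mir-19b-3p, with 38.6% of 5771 isomiR reads in the lactation library, against 50.2% of 4434 in the non-lactation library (Fisher's exact test, adjusted p = 2.81e-29). Over the 411 miRNAs the median share was 47.5% in the lactation library, against 50.0% in the non-lactation library.

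Because of these shares, the size of a member's ratio depended on which reads were counted. With all isomiRs the ratio was 2.45 for mir-17-5p (2.36 to 2.56), 2.15 for mir-20a-5p (2.03 to 2.27) and 1.18 for mir-17-3p (1.06 to 1.32), which did not pass the test there. The mir-19b-3p ratio was larger, at 1.74 (1.67 to 1.81), and the mir-92-3p ratio was 0.895 (0.886 to 0.905). More kinds of isomiR were also listed in the lactation library than in the non-lactation library, 57 against 28 for mir-17-5p, 31 against 14 for mir-20a-5p, 56 against 23 for mir-19b-3p and 150 against 139 for mir-92-3p. For mir-18a-5p 4 kinds were listed in each library. The isomiR reads were also more numerous in the lactation library for mir-17-5p, mir-20a-5p and mir-19b-3p, but not for mir-92-3p. Kinds were neither scaled for these reads nor compared with those of all miRNAs.

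**Figure D3:**
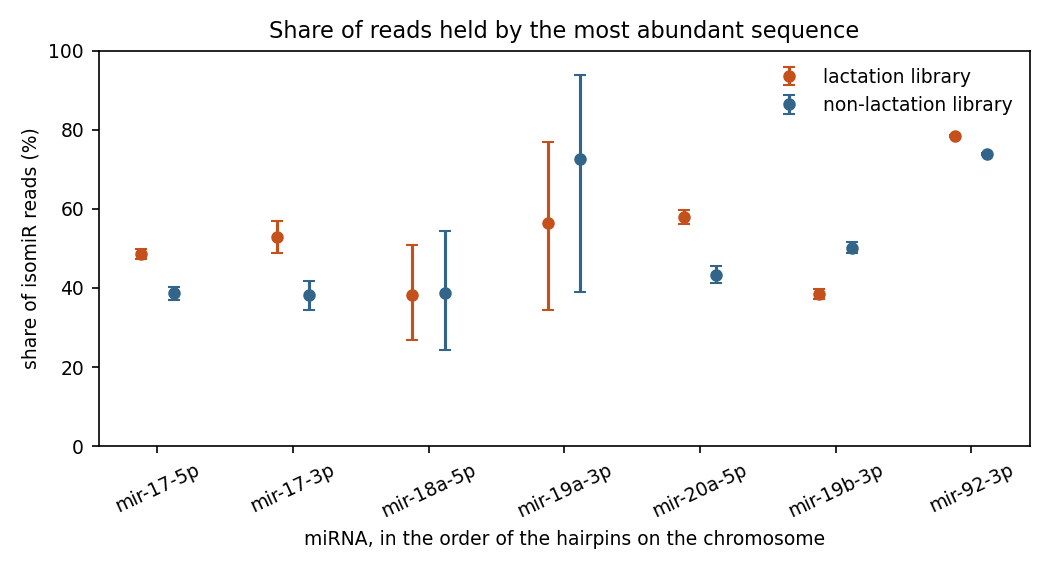
Share of each member's isomiR reads that its most abundant sequence held, in the lactation library and the non-lactation library, with exact 95% binomial intervals. In mir-17-5p, mir-17-3p, mir-20a-5p and mir-92-3p the lactation point is the higher one, in mir-19b-3p it is the lower one (38.6% and 50.2%), and the intervals of mir-18a-5p and mir-19a-3p overlap.

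Entries of the conserved table (prefix PC) on the same hairpins were 1-base variants of members. PC-92b-3p differs from mir-92-3p by U22A, the last base, shown in capitals.
PC-92b-3p: uauugcacuugucccggccugA
It had 653 reads in the lactation library, against 986 in the non-lactation library, which is 1.45% and 1.56% of the mir-92-3p reads. Its ratio of 0.884 (0.799 to 0.977) was not separable from that of mir-92-3p, the ratio of ratios being 1.08 (0.973 to 1.19). PC-106-5p on the mir-20a hairpin (U1A) and PC-106a-5p on the mir-17 hairpin (U10A) had 3 reads each in the lactation library and were listed at 0 in the non-lactation library.

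Relatives of the cluster lie at other places in the genome. The mir-106a-363 cluster (mir-106, mir-18b, mir-20b and mir-363 in the tables) lies on chromosome X in RefSeq and on an unplaced contig in the tables' build, and the mir-106b-25 cluster (mir-106b, mir-93 and mir-25) lies on chromosome 25. Their sequences are shown because they carry the seeds of members, in capitals.
mir-106-5p: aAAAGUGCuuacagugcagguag
mir-20b-5p: cAAAGUGCucacagugcagguag
mir-363-3p: aAUUGCACgguauccaucugcg
mir-106b-5p: uAAAGUGCugacagugcagaua
mir-93-5p: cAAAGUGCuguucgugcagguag
mir-25-3p: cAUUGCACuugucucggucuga
Against mir-17-5p, mir-106-5p differs by C1A and mir-20b-5p by U10C, so isomiRs of these miRNAs that carry a mismatch or lack the first base could be counted under another of them.

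The miRNAs with the seed of mir-17 spread widely by cluster. In the mir-106a-363 cluster mir-20b-5p had 778 reads in the lactation library, against 84 in the non-lactation library, or 65.0 RPM and 5.26 RPM. In the same cluster mir-106-5p had 357 and 54 reads and was 8.82-fold higher (6.61 to 12). In the mir-106b-25 cluster mir-106b-5p had 1729 reads in the lactation library, against 2436 in the non-lactation library, with a ratio of 0.947 (0.890 to 1.01). Its neighbour mir-93-5p had 2624 and 4436 reads and was 1.27-fold lower (1.21 to 1.33; Fisher's exact test, adjusted p = 3.23e-19). The ratio of mir-17-5p was 3.26 times that of mir-106b-5p (2.98 to 3.56), and the ratio of mir-20b-5p was 4.0 times that of mir-17-5p (3.16 to 5.12).

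All 6 known miRNAs with this seed summed to 894 RPM in the lactation library, against 584 RPM in the non-lactation library, 1.53-fold higher (1.49 to 1.57). The mir-17-92 members mir-17-5p and mir-20a-5p gave 48.7% of these reads in the lactation library, against 24.8% in the non-lactation library.

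The miRNAs with the seed of mir-92-3p also differed by cluster. Next to mir-92-3p itself, mir-363-3p had 1392 reads in the lactation library, against 574 in the non-lactation library, and was 3.24-fold higher (2.93 to 3.57), whereas mir-25-3p had 27684 and 107961 reads and was 2.92-fold lower (2.88 to 2.96). A further miRNA with this seed outside the 3 clusters, mir-32-5p, had 215 reads in the lactation library, against 51 in the non-lactation library, 5.63-fold higher (4.13 to 7.79). The 4 together summed to 6220 RPM in the lactation library, against 10765 RPM in the non-lactation library, 1.73-fold lower. Of this sum mir-92-3p held 60.6% in the lactation library, against 36.8% in the non-lactation library.

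In each of the 3 clusters the miRNAs with the mir-17 seed stood above the one of the mir-92 seed named here, a contrast that was chosen after the values were seen and is given as a description. RefSeq also places the mir-92 copy MIR92A-2 in the chromosome X cluster, and any reads of it with the mir-92-3p sequence are counted here under mir-17-92. In mir-17-92 the ratios of ratios over mir-92-3p were 3.25 and 3.02, as above. In mir-106a-363 they were 3.82 for mir-20b-5p over mir-363-3p (2.98 to 4.94) and 2.73 for mir-106-5p over mir-363-3p (2.01 to 3.76). In mir-106b-25 they were 2.77 for mir-106b-5p over mir-25-3p (2.60 to 2.95) and 2.31 for mir-93-5p over mir-25-3p (2.19 to 2.43). All 6 of these intervals lay above 1, also with the reads of all isomiRs, where the ratios of ratios ran from 2.12 to 3.87. By Fisher's exact test mir-106-5p, mir-20b-5p and mir-363-3p were higher and 2 of the 3 mir-106b-25 miRNAs were lower, while mir-18b-5p passed against its listed 0 only, and not with that 0 set to 3 reads (adjusted p = 1.0).

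**Figure D4:**
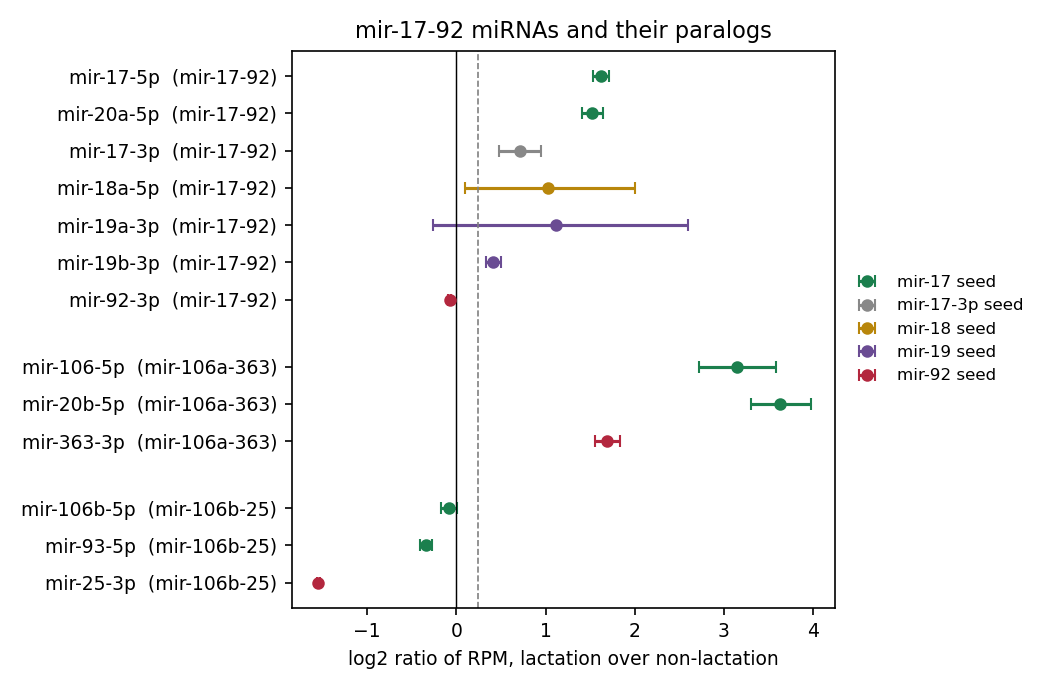
Log2 of the RPM ratio (lactation over non-lactation) with exact 95% intervals, for the mir-17-92 miRNAs and their known paralogs, coloured by seed family. The dashed line is the median of 0.24 over miRNAs with at least 100 summed reads, and in each cluster the green mir-17 seed points lie to the right of the red mir-92 seed point. The mir-18b-5p miRNA, listed at 0 in the non-lactation library, has no interval and is not drawn.

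The mir-18b-5p miRNA, which differs from mir-18a-5p by A20U, had 13 reads in the lactation library and was listed at 0 in the non-lactation library. With that 0 set to a floor of 3 reads the ratio was 5.78, given without a counting interval, and the miRNA did not pass the test. No other known miRNA in the tables shared the seed of mir-19a-3p and mir-19b-3p, which together had 187 RPM in the lactation library, against 140 RPM in the non-lactation library. An unplaced conserved entry with that seed, PC-19b-3p, was listed at 0 in the lactation library and had 3 reads in the non-lactation library.

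Among the other 104 known miRNAs with at least 1000 summed reads, the log2 ratios nearest to that of mir-17-5p were those of mir-363-3p (1.69), mir-126-5p (1.71) and mir-20a-5p (1.52). The nearest to mir-92-3p were mir-106b-5p (-0.08), let-7e-5p (-0.08) and let-7f-5p (-0.09). Likeness here rests on 1 library per condition.

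Markers of cell types differed between the libraries beside these results, with RPM scaled to clean reads. In this paragraph higher means a ratio above 1, whether or not the miRNA passed Fisher's exact test. In bulk tissue fewer cells of a type and less RNA per cell cannot be told apart. Epithelial miRNAs summed to 15169 RPM in the lactation library, against 2797 RPM in the non-lactation library, with 6 of 7 higher and mir-205-5p lower. Those of stroma and smooth muscle summed to 8640 RPM and 14558 RPM in the lactation and the non-lactation library, with 3 of 6 higher. This sum leaned on mir-199a-3p, with 25123 and 159166 reads in the same order. Ratios were 0.211 for mir-199a-3p, 0.376 for mir-199a-5p and 0.265 for mir-199b-5p. The higher ones were mir-143-3p (2.35), mir-145-5p (1.17) and mir-214-3p (1.73, on 26 and 20 reads). The endothelial mir-126 arms summed to 487 RPM in the lactation library, against 165 RPM in the non-lactation library, both higher. Blood cell miRNAs summed to 139 RPM in the lactation library, against 146 RPM in the non-lactation library, with 2 of 6 higher. This sum joined miRNAs that moved in opposite directions. Higher were mir-451-5p, with 889 and 475 reads in the same order, and mir-144-3p, with 3 reads and a listed 0. Lower were mir-142-5p (423 and 1128 reads), mir-142-3p (161 and 416), mir-150-5p (167 and 242) and mir-223-3p (24 and 67). Of these 6, mir-144-3p, mir-150-5p and mir-223-3p did not pass the adjusted test. Striated muscle miRNAs summed to 4480 RPM in the lactation library, against 696 RPM in the non-lactation library, with 4 of 4 higher. Most of these reads were of mir-1-3p, with 52558 and 11041 reads in the same order. By contrast mir-133b-3p (10 and 7 reads) and mir-206-3p (13 and 5 reads) did not pass the adjusted test. The part of these cell types in the differences of the mir-17-92 members was not tested.

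**Figure D5:**
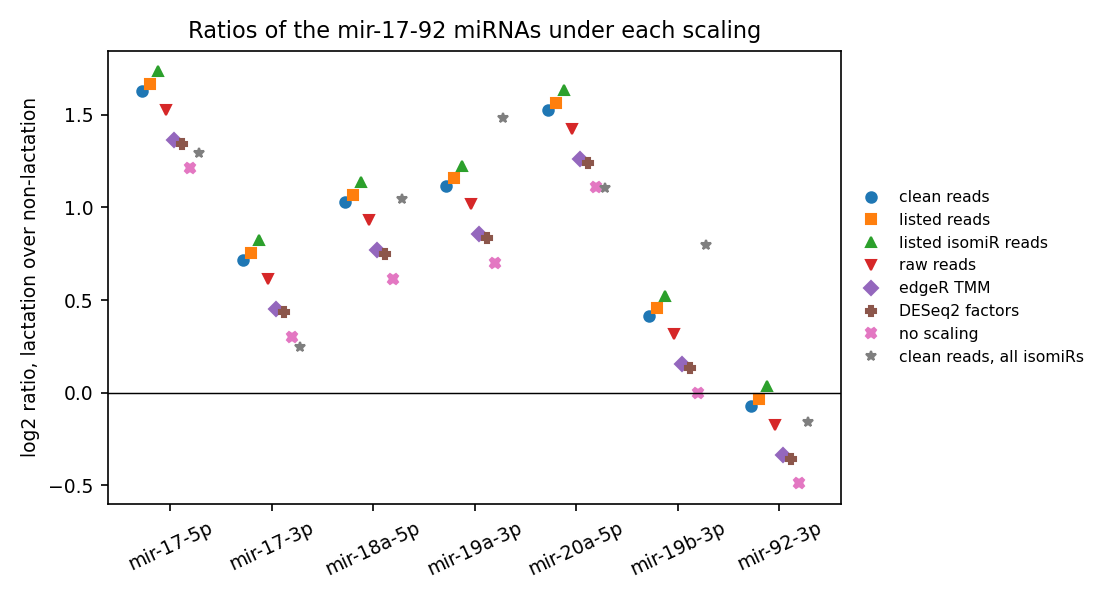
Log2 ratio, lactation over non-lactation, of each member under 7 scalings of the most abundant sequence and with all isomiR reads. The mir-17-5p and mir-20a-5p points stay above 1 in every case, while those of mir-19b-3p and mir-92-3p reach 0 or cross it.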

How the data were processed

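Small RNA from the MG of 1 lactating and 1 non-lactating cow was sequenced on a Genome Analyzer. The sample labels name Trizol and a TruSeq kit, whereas the study's methods name a Qiagen kit and an Illumina small RNA kit. The authors filtered the reads, mapped them with ACGT101-miR to miRBase 17.0 and to BTA 4.0, and deposited, in 3 tables with 18 value columns, a read count for the most abundant sequence of every miRNA and another for its isomiRs summed. One such column of the conserved table, also deposited by the authors, was recorded under other units because a header cell stands among its values, and it holds the same kind of read count. The isomiR read and kind columns of the CN table were swapped relative to its header, since their values contradict it. RPM used the clean reads the study gives for each library. A listed 0 was set to 3 reads in ratios and taken as 0 in Fisher's exact test, where 37 of the 250 calls rest on a listed 0 and 11 of them are lost with 3 reads in its place. For 883 miRNAs a value was listed in both libraries, and these were compared by Fisher's exact test, with a Bonferroni-adjusted threshold of 0.05. Tests used scipy 1.17.1 in Python 3.11.15. Scaling factors came from edgeR 4.0.16 (TMM) and DESeq2 1.42.0 in R 4.3.3, neither of which can estimate dispersion from these libraries. Methods were tested on simulated counts. Named miRNAs are all members, the other arms and conserved entries of their hairpins, paralogs, known miRNAs that share a seed, the 3 nearest ratios to mir-17-5p and to mir-92-3p, and the neighbouring clusters by range. The members, lists and markers were chosen with earlier results of these data known. Alternatives were 6 other scalings, all isomiR reads, Benjamini-Hochberg adjustment and other filters and folds. Hairpin sequences come from the tables, and no genome or target prediction was used here.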

Additional observations from a re-analysis of the deposited data

How the results depend on the processing

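Of 127 values recomputed under an alternative, 102 kept their direction and their side of the threshold or, for counts, stayed within 1.5 times and, for shares and ranges, within the interval. The 102 include merging entries of the same sequence and testing a listed 0 as 3 reads, which could not change any member. No library could be left out, and no paired analysis was possible because the labels carry no replicate numbers and there is 1 library per condition. The median log2 ratio of miRNAs with at least 100 summed reads moved by -0.26 under TMM, -0.28 under DESeq2 factors, -0.42 with no scaling, -0.10 with raw reads as totals and 0.11 with the listed isomiR reads as totals. Under TMM, DESeq2 factors and no scaling, 3 members passed Fisher's exact test, 2 of them higher, and with Benjamini-Hochberg adjustment 6 did. Testing a listed 0 as 3 reads, added after seeing the data, could not change the count of 5 members, because no member had a listed 0. The mir-17-3p miRNA no longer passed under TMM, DESeq2 factors or no scaling, with log2 ratios of 0.45, 0.43 and 0.30, nor with all isomiRs (0.24). In the same scalings mir-19b-3p had 0.15, 0.13 and, turned round, -0.00065. The mir-92-3p log2 ratio was -0.0331 and no longer past the test with the listed reads as totals, and turned to 0.0349 with the listed isomiR reads. A 4-fold rule left 0 members, and a minimum of 10 summed reads or none gave 4 (all higher). Those 4 take in mir-18a-5p and mir-19a-3p, which did not pass the Bonferroni-adjusted test. No background over all miRNAs was counted for these rules. With all isomiRs, mir-17-5p over mir-20a-5p excluded 1 (1.14), mir-17-3p over mir-19b-3p turned round (0.682), as did mir-17-5p (0.88) and mir-20a-5p (0.770) over mir-19a-3p, whose intervals held 1, the range of log2 ratios within the cluster was 1.46, and the second arm of mir-20a held 0.491% in the non-lactation library, the isomiR reading of arms and paralogs having been added after seeing the data. These changes follow from the totals, reads or minimum that each alternative puts in, and why isomiR shares differ was not tested. Depth limits mir-18a-5p and mir-19a-3p, whose intervals span several-fold.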
